A study of Mus musculus with 12 samples.

Results

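The genes of sterol and fatty acid synthesis described here are 31 of the 54838 genes in the deposited count table of an ileum RNA-seq experiment. They were chosen by symbol, as genes of these pathways and targets of the SREBP factors, and all 31 symbols matched 1 Ensembl identifier each and passed the filter on low counts. The list holds 7 enzymes of the mevalonate pathway (Hmgcs1, Mvk, Pmvk, Mvd, Idi1, Fdps and Acat2), 11 enzymes from squalene to cholesterol (Fdft1, Sqle, Lss, Cyp51, Tm7sf2, Msmo1, Nsdhl, Hsd17b7, Ebp, Sc5d and Dhcr7), 8 genes of fatty acid synthesis (Scd1, Scd2, Fasn, Acaca, Acly, Elovl6, Me1 and Acss2), the 4 regulators Srebf1, Srebf2, Insig1 and Insig2, and the cholesterol carrier Stard4.

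The libraries came from the ileum of 12 wild-type C57BL/6J mice in 4 groups of 3. The study's methods name females and an age between 8 and 14 weeks. The water + PBS mice drank normal water for 7 days and were then injected with PBS, the water + Dex mice drank normal water and received 200 μg of Dex, the ZnSO4 + PBS mice drank 25 mM ZnSO4 for 7 days before PBS, and the ZnSO4 + Dex mice had both treatments. Dex is short for dexamethasone, a synthetic ligand of the glucocorticoid receptor (GR), and all ilea were taken 2 h after the injection. The design lets the Dex effect on these genes be compared between water and ZnSO4 mice.

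Cells make cholesterol from acetyl-CoA through mevalonate, isoprenoid phosphates, squalene and lanosterol, and the same acetyl-CoA feeds fatty acid synthesis. SREBP-2 (gene Srebf2) and SREBP-1 (Srebf1) are transcription factors held in the endoplasmic reticulum membrane with the sterol sensor SCAP. INSIG proteins retain them there when sterols are plentiful, and on sterol depletion they are cut free and switch on these enzymes. The small intestine takes up dietary and biliary cholesterol and also makes its own, in crypts and villi.

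The libraries held 10760132 to 11827487 counts each. The marker genes of the treatments followed the labels: Fkbp5, a classical GR-induced gene, lay between 950.0 and 1222 normalised counts in the 6 PBS mice and between 10263 and 12396 in the 6 Dex mice, and the metallothionein gene Mt1 lay between 490.3 and 1376 in water mice and between 11971 and 27940.0 in ZnSO4 mice. Defining markers of enterocytes were present in every library, with 7 genes (Vil1, Fabp2, Alpi, Apoa4, Lct, Slc5a1 and Anpep) summing to between 81300 and 214040 normalised counts. The lowest of these sums was that of ZnSO4 + Dex replicate 2, and the other 11 libraries lay at 144570 or more. Markers of other cell types varied between libraries: 7 adipocyte markers summed to between 524 and 6123 and 6 B cell markers to between 120.4 and 6113. The sum of 4 hepatocyte markers was 4205 in water + Dex replicate 3 and 2521 in ZnSO4 + Dex replicate 2, against 75.8 to 727 in the other libraries.

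Normalised counts were scaled to the mean effective library size of the 12 libraries, so they compare a gene between mice. Values are given for replicates 1, 2 and 3 of a group in that order. Group values are means ± SD of 3 mice. The LFC is the log2 fold change, printed ± its standard error (SE), and a gene was called at an adjusted p under 0.05 in edgeR's quasi-likelihood test with Benjamini-Hochberg adjustment over the 15938 genes that passed the filter. Because the ileum was sequenced as bulk tissue, fewer cells of a type and less RNA per cell cannot be told apart.

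To show the DNA in front of the genes that Dex raised, the 250 bases upstream of the RefSeq start are printed for Pmvk, Mvd, Lss and Msmo1 and, for comparison, for Hmgcs1, which had the only match among the members to TCACNCCAC, the longer form of the sterol regulatory element that SREBPs bind. Capitals mark CCAAT, the site of the factor NF-Y that often accompanies SREBPs, and TCACNCNA, a shortened sterol regulatory element that overlaps the longer form, on either strand. The stretches lie on GRCm38.p6 at chr13:119690101-119690350 for Hmgcs1 (plus strand), chr3:89454291-89454540 for Pmvk (plus strand), chr8:122443423-122443672 for Mvd (minus strand), chr10:76531355-76531604 for Lss (plus strand) and chr8:64733579-64733828 for Msmo1 (minus strand), and each is written along its gene.
Hmgcs1: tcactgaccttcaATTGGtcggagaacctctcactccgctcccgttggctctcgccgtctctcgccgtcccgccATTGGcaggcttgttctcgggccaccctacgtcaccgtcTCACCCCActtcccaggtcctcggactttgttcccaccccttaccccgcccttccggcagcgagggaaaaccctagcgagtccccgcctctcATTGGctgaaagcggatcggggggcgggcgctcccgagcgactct
Pmvk: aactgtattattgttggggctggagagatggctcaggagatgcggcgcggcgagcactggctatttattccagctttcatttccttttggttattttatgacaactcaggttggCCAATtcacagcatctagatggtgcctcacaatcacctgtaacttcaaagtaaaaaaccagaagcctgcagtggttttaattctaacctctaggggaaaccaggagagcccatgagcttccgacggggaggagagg
Mvd: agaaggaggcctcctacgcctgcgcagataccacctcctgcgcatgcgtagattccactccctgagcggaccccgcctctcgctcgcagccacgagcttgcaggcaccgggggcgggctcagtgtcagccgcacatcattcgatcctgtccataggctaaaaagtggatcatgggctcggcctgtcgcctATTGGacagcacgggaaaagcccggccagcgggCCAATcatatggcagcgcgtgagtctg
Lss: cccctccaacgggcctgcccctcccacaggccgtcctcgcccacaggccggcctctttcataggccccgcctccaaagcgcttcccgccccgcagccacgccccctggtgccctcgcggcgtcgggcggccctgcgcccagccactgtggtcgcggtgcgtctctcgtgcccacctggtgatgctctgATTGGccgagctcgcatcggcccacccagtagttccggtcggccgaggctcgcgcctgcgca
Msmo1: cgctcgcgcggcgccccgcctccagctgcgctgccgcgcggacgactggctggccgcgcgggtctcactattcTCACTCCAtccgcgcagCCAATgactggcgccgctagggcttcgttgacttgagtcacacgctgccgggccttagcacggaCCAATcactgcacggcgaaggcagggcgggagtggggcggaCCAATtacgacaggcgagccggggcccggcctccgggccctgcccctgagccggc
Hmgcs1 holds CCAAT boxes around its sterol element, whose match starts 137 bases upstream of the gene's start, and Msmo1 holds a shortened element 177 bases upstream, followed by CCAAT boxes. Pmvk has another RefSeq start, not printed, whose window (chr3:89459321-89459620) held no match to either marked pattern.

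RefSeq windows of 300 bases (250 before and 50 after the start) were at hand for 25 of the 31 members. Fdps, Fdft1, Sqle, Stard4, Scd1 and Scd2 were not analysed here. CCAAT was found on either strand in 22 of the 25 members (88%), compared with 41.1% of the 27025 genes with a window. The GC box GGGCGG, which factors of the Sp family bind, was found in 21 members (84%), compared with 38.2% of genes. TCACNCNA was found in 7 members (28%; Hmgcs1, Msmo1, Nsdhl, Srebf1, Srebf2, Fasn and Acss2), compared with 12.5% of genes, and TCACNCCAC in Hmgcs1 alone (4%), compared with 1.44%. ACANNNTGT, the core of the site that GR dimers bind, was found in Acat2 and Acss2 (8%), compared with 7.9% of genes. A match is a description of letters in these windows, and genes with several starts had more than 1 window in which to find one.

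In untreated mice the members differed widely in level. Scaled per kilobase of exon and for library depth (an FPKM-like level), Hmgcs1, which condenses acetoacetyl-CoA to HMG-CoA, stood highest at 78.2 in water + PBS mice, followed by the desaturase gene Scd1 at 69.9, Stard4 at 61.7 and Scd2 at 54.5. The lowest were Fdps at 1.82, Acaca at 2.87 and Lss at 3.18. On this scale Srebf2 was at 31.9 and Srebf1 at 9.43. The length used is that of all annotated exons of a gene, which lowers these levels for genes with many transcript forms. Gm43738 overlaps 26.7% of the exonic bases of Fdps on the same strand. Of the 31-base stretches of Fdps and Acaca, 27.9% and 33.5% recur in other genes. Only uniquely mapped reads were counted, so such stretches can lower both levels. Neighbours in this order were not tested against each other, and Scd1 varied from 1136 to 8283 normalised counts among the 3 water + PBS mice.

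**Figure D1:**
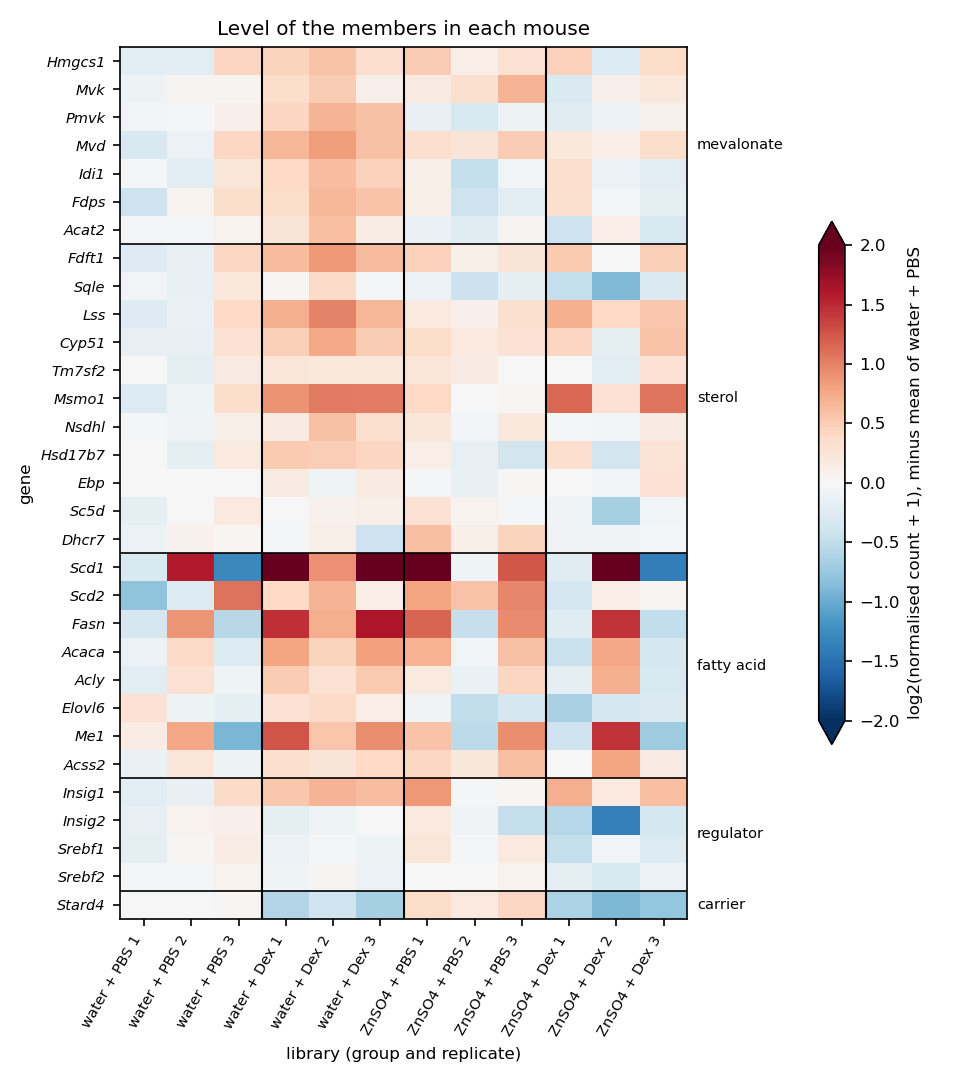
Level of each of the 31 genes (rows, grouped by role) in each of the 12 mice (columns, grouped by treatment), as log2(normalised count + 1) minus the mean of the water + PBS mice. Most rows of the mevalonate and sterol groups are above 0 in the 3 water + Dex mice, the Stard4 row is below 0 in all 6 Dex mice, and the Scd1, Fasn and Me1 rows vary within every group.

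Injection of Dex in water mice raised 5 members and lowered 1. The 5 upregulated genes were Pmvk and Mvd of the mevalonate pathway and Fdft1, Lss and Msmo1 of the sterol pathway, and the downregulated gene was Stard4. These are 16.1% of the members higher and 3.23% lower, where 5.41% of all tested genes were called higher and 4.51% lower. In 16 of the 31 members (51.6%) all 3 water + Dex mice lay above all 3 water + PBS mice, as they did in 15.2% of all tested genes, and in Stard4 (3.23%) all lay below, as in 14.5%. The median LFC of the members was 0.42, with 26 of 31 above 0, and the median over all tested genes was -0.01.

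Within the mevalonate pathway, all 7 genes had an LFC above 0, from 0.33 to 0.67. Pmvk (ENSMUSG00000027952, chromosome 3, 89454541 to 89469013) encodes phosphomevalonate kinase. It had 479.6, 484 and 536 normalised counts in the 3 water + PBS mice, 670.1, 799 and 746 in the water + Dex mice, 446, 402 and 465 in the ZnSO4 + PBS mice and 423, 459 and 532 in the ZnSO4 + Dex mice. The 3 water + Dex mice thus stood above every other mouse of the experiment. Dex in water mice raised Pmvk from 499.7 ± 31.4 to 738 ± 64.9 normalised counts (LFC 0.56 ± 0.10, adjusted p = 0.00417), and edgeR called it in each of the 12 fits that left out 1 library. Of these fits, only those without a water + PBS or water + Dex library remove a mouse of this comparison.

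Mvd (ENSMUSG00000006517, chromosome 8, 122433601 to 122443422) encodes mevalonate diphosphate decarboxylase, which acts next on the product of Pmvk. It had 256, 290.0 and 423 normalised counts in the 3 water + PBS mice, 498, 566 and 473 in the water + Dex mice, 397, 378 and 450.1 in the ZnSO4 + PBS mice and 365, 346 and 402 in the ZnSO4 + Dex mice. The lowest water + Dex mouse lay above the highest of the other 9. Mvd rose from 323 ± 88.2 to 513 ± 47.9 normalised counts in water mice (LFC 0.67 ± 0.16, adjusted p = 0.0217), with adjusted p-values of 0.0545 to 0.0918 in the 4 fits without water + PBS replicate 1 or 2 or water + Dex replicate 1 or 2. Mvk, Idi1, Fdps and Acat2 also did not overlap between the groups, with LFCs of 0.33, 0.48, 0.51 and 0.35, but none had an adjusted p under 0.05 (from 0.129 for Idi1 to 0.267 for Mvk). Hmgcs1 overlapped, with 3466, 3402 and 5388 in water + PBS mice and 5431, 5928 and 5013 in water + Dex mice (LFC 0.42 ± 0.21, adjusted p = 0.271). For Acat2, 43.7% of its 31-base stretches recur in other genes, foremost Acat3. For Fdps 27.9% recur, foremost in Gm43738, and for Idi1 27.1%, foremost in Gm13502, which limits the counts of these genes.

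In the sterol pathway, 10 of 11 genes had an LFC above 0 and 3 were called. Msmo1 (ENSMUSG00000031604, chromosome 8, 64718139 to 64733792), the methylsterol monooxygenase that starts the removal of methyl groups from carbon 4 of the sterol ring, changed most. It had 2221, 2538 and 3421 normalised counts in the 3 water + PBS mice, 5020.4, 5495 and 5427 in the water + Dex mice, 3527, 2702 and 2719 in the ZnSO4 + PBS mice and 5920.5, 3264 and 5649 in the ZnSO4 + Dex mice. All water + Dex mice lay above all PBS mice of both waters. Msmo1 rose from 2726 ± 622 to 5314 ± 257 normalised counts, a fold change of 1.95 (LFC 0.96 ± 0.22, adjusted p = 0.0152). Leaving out 1 library at a time gave LFCs from 0.83 to 1.16, and the adjusted p was 0.0562 to 0.0709 in 4 of these fits, those without water + PBS replicate 1 or 2 or water + Dex replicate 2 or 3.

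Lss (ENSMUSG00000033105, chromosome 10, 76531588 to 76557138) encodes lanosterol synthase, which closes the rings of squalene epoxide. It had 318, 347 and 505 normalised counts in the 3 water + PBS mice, 633, 760.3 and 608 in the water + Dex mice, 439, 410.0 and 478 in the ZnSO4 + PBS mice and 628, 503 and 557 in the ZnSO4 + Dex mice. The groups of water mice did not overlap, and ZnSO4 + Dex mice overlapped with water + Dex mice. Lss rose from 389.9 ± 100.3 to 667 ± 81.5 normalised counts by Dex in water mice (LFC 0.77 ± 0.16, adjusted p = 0.0098), a call kept in all 12 fits without 1 library.

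Fdft1 (ENSMUSG00000021273, chromosome 14, 63145150 to 63179578) encodes squalene synthase, the first enzyme committed to sterols. It had 869, 945 and 1384 normalised counts in the 3 water + PBS mice, 1617, 1908 and 1627 in the water + Dex mice, 1435, 1134 and 1246 in the ZnSO4 + PBS mice and 1494, 1054 and 1457 in the ZnSO4 + Dex mice. All water + Dex mice lay above all others. It rose from 1066 ± 278 to 1717 ± 165 normalised counts (LFC 0.69 ± 0.18, adjusted p = 0.0324), and its adjusted p was 0.0648 to 0.126 when water + PBS replicate 1 or 2 or any water + Dex mouse was left out (5 of the 12 such fits). Among the fits without a mouse of these groups, only that without water + PBS replicate 3 kept the call. An exon of Ctsb on the opposite strand overlaps 18.3% of the exonic bases of Fdft1, and 31.9% of its 31-base stretches recur in other genes.

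The remaining 8 sterol genes were not called. Cyp51, the lanosterol demethylase, was closest, with 2130.4, 2142 and 2946 normalised counts in water + PBS mice and 3325, 4041 and 3388 in water + Dex mice (LFC 0.57 ± 0.18, adjusted p = 0.0735), and DESeq2 called it (adjusted p = 0.0235). Hsd17b7, Nsdhl and Tm7sf2 did not overlap between the groups either (LFC 0.48, 0.36 and 0.22; adjusted p = 0.132, 0.082 and 0.349). Sqle, the squalene epoxidase that precedes Lss, had an LFC of 0.13 and overlapped between the groups, as did Ebp, Sc5d and Dhcr7, the late isomerase, desaturase and reductase (0.10, 0.06 and -0.10).

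Stard4 (ENSMUSG00000024378, chromosome 18, 33199355 to 33213862) encodes a soluble protein that carries cholesterol between membranes. It moved against the enzymes, with 3890.2, 3888 and 3995 normalised counts in the 3 water + PBS mice, 2611, 2973 and 2485 in the water + Dex mice, 5076, 4474 and 5225 in the ZnSO4 + PBS mice and 2534, 2106 and 2301 in the ZnSO4 + Dex mice. Each of the 6 Dex mice lay below each of the 6 PBS mice. Dex lowered Stard4 from 3924 ± 60.9 to 2689.9 ± 253 normalised counts in water mice (LFC -0.54 ± 0.10, adjusted p = 0.00347) and from 4925 ± 397 to 2314 ± 214 in ZnSO4 mice (LFC -1.09 ± 0.10, adjusted p = 2.47e-05), and edgeR called both falls in each of the 12 fits without 1 library.  The difference between these falls had an LFC of -0.55 (unadjusted p = 0.00178, adjusted p = 0.952 in edgeR's test of the interaction), so it was not called.

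**Figure D2:**
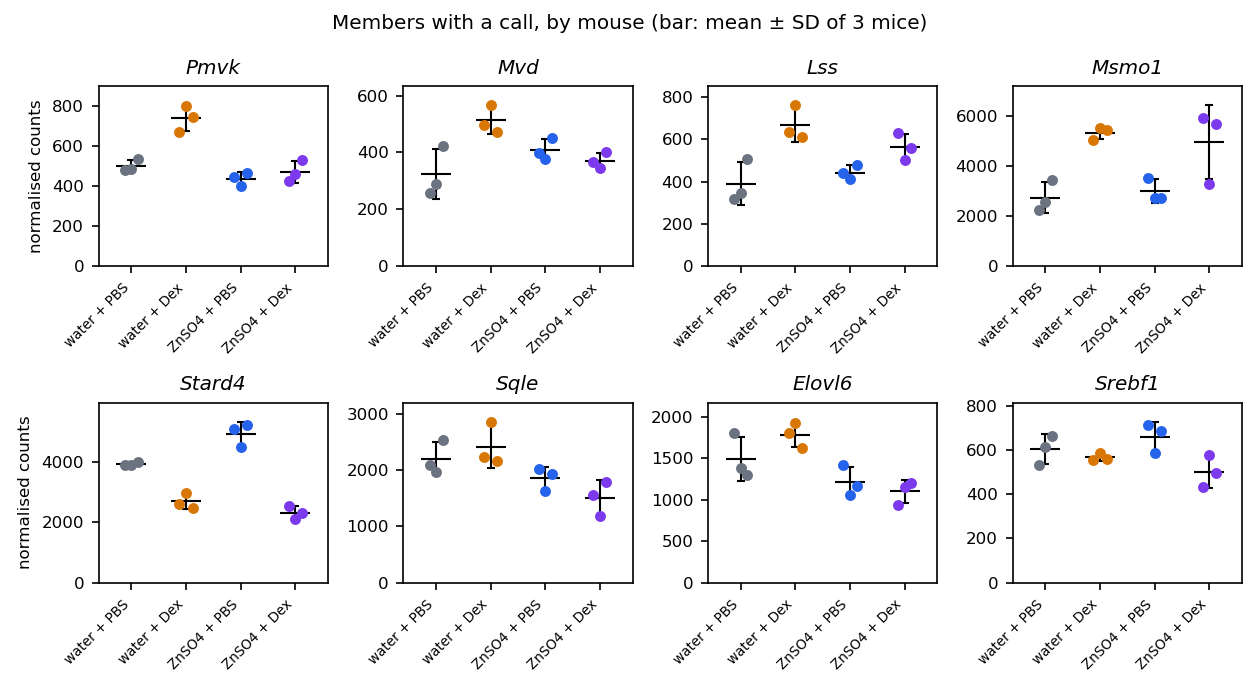
Normalised counts of 8 members with a call in at least 1 comparison, 1 point per mouse (3 per group), with the mean as a bar and error bars of 1 SD. The water + Dex points of Pmvk and Mvd lie above all other points, the Dex points of Stard4 lie below all PBS points, and the ZnSO4 + Dex points of Sqle and Elovl6 lie below the water + Dex points.

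The regulators of the pathway were not called by Dex in water mice. Srebf2 had 2520.5, 2546 and 2748 normalised counts in the 3 water + PBS mice, 2457, 2696 and 2404 in the water + Dex mice, 2589, 2620.1 and 2729 in the ZnSO4 + PBS mice and 2292, 2118 and 2399.7 in the ZnSO4 + Dex mice. The water groups overlapped (LFC -0.05, adjusted p = 0.754), while all ZnSO4 + Dex mice lay below all mice of the other 3 groups. Srebf1 had 533, 615 and 666 normalised counts in the 3 water + PBS mice, 554, 586 and 561 in the water + Dex mice, 713, 586 and 686 in the ZnSO4 + PBS mice and 431, 578 and 497 in the ZnSO4 + Dex mice. Water + Dex mice lay within the range of water + PBS mice (LFC -0.09 ± 0.12, adjusted p = 0.7).

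Insig1, itself a target of SREBP and an anchor that holds it back, had 547, 576 and 834 normalised counts in the 3 water + PBS mice, 932, 1028 and 982 in the water + Dex mice, 1167, 622 and 656 in the ZnSO4 + PBS mice and 1058, 731 and 972 in the ZnSO4 + Dex mice. All 3 water + Dex mice lay above the water + PBS mice, yet the difference was not called (LFC 0.59 ± 0.24, adjusted p = 0.164). Insig2, the related anchor, had 1267, 1494 and 1527 normalised counts in the 3 water + PBS mice, 1255, 1339 and 1414 in the water + Dex mice, 1631, 1363 and 1018 in the ZnSO4 + PBS mice and 960.1, 552 and 1120.3 in the ZnSO4 + Dex mice. It overlapped between the water groups (LFC -0.10 ± 0.22, adjusted p = 0.844).

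Fatty acid synthesis had 8 of 8 LFCs above 0 by Dex in water mice, with a median of 0.55, and 0 calls. By edgeR, 0 of the 8 had an unadjusted p under 0.05, against 22.7% of all tested genes. Scd1, the stearoyl-CoA desaturase, had 2250.1, 8283 and 1136 normalised counts in the 3 water + PBS mice, 13151, 5215 and 16725 in the water + Dex mice, 11952, 2594 and 6525 in the ZnSO4 + PBS mice and 2328, 11081 and 1060.5 in the ZnSO4 + Dex mice. Mice of the same group differed widely, and the groups overlapped (LFC 1.59 ± 0.92, adjusted p = 0.346 for Dex in water mice). Fasn, the fatty acid synthase, had 1261, 2939 and 1085 normalised counts in the 3 water + PBS mice, 4380.5, 2643 and 4897 in the water + Dex mice, 3560.2, 1157 and 3052 in the ZnSO4 + PBS mice and 1347, 4350.2 and 1128 in the ZnSO4 + Dex mice (LFC 1.17 ± 0.57, adjusted p = 0.252). The highest water + PBS mouse lay above the lowest water + Dex mouse. Acaca and Acss2, which make malonyl-CoA and acetyl-CoA, did not overlap between the water groups (LFC 0.67 and 0.33, adjusted p = 0.225 and 0.342). Me1, Acly, Elovl6 and Scd2 overlapped (LFC 0.79, 0.43, 0.26 and 0.19). Of the 31-base stretches of Me1 and Acaca, 36.9% and 33.5% recur in other genes, foremost Gm7049 and Gm5182, which limits their counts.

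Adipocyte markers varied from mouse to mouse with 6 of the 8 genes of fatty acid synthesis. The 7 markers (Adipoq, Plin1, Cfd, Cidec, Retn, Lep and Fabp4) summed to 1415, 2825 and 524 normalised counts in water + PBS mice, 3629, 2074 and 6123 in water + Dex mice, 5199.8, 1076 and 2334 in ZnSO4 + PBS mice and 1353, 3792 and 736 in ZnSO4 + Dex mice. None of the markers was at 0 in all libraries and 3 were at 0 in at least 1. In ZnSO4 + Dex replicate 3, Cidec (368) and Fabp4 (364) made up nearly all of the sum. Cidec did not follow Adipoq in that group, with 388, 292 and 368 normalised counts against 58.1, 396 and 1.07. All 7 had an LFC above 0 by Dex in water mice (median 1.48), with 0 called. Among the 12 pairs of mice within a group, Scd1 and Fasn had the order of the summed adipocyte markers in all 12, as did 0.314% of all tested genes. Acaca had it in 11, Acly and Me1 in 10 and Acss2 in 9. Elovl6 and Scd2 had it in 6 and 5, the mevalonate and sterol genes had it in 3 to 7 and all tested genes in a median of 6. A fit with the adipocyte markers as a covariate was added after the data were seen. In it, edgeR called Pmvk, Mvd, Fdft1, Lss and Msmo1 higher and Stard4 lower by Dex in water mice, together with Cyp51 (LFC 0.79, adjusted p = 0.0113). Pmvk, Mvd, Fdft1, Lss, Msmo1 and Stard4 had the order of these markers in only 3 to 6 of the 12 pairs. The fit therefore says little about the mix of cell types for them, and enterocyte markers were not put in a fit. The part of adipocytes in the Dex effect was not tested.

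**Figure D3:**
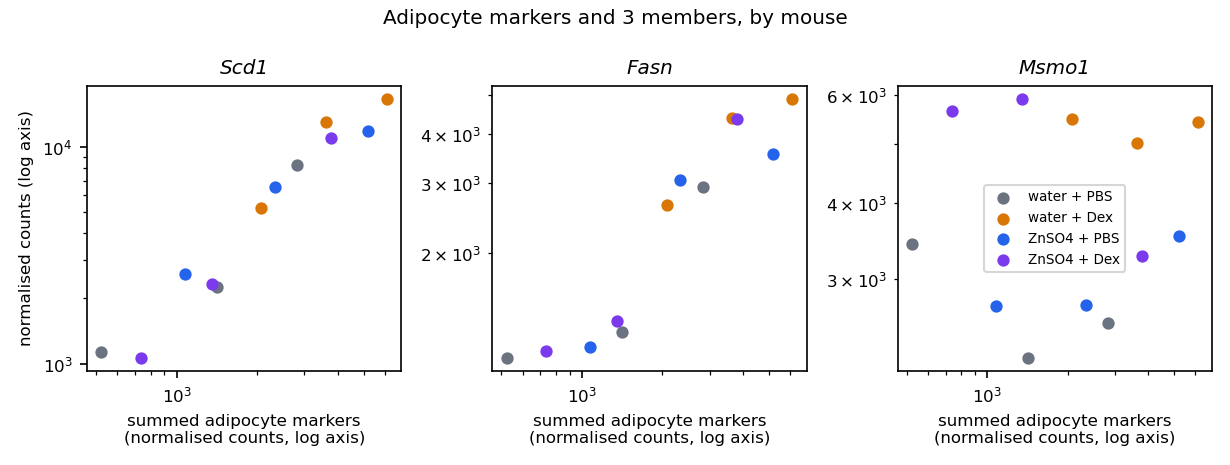
Normalised counts of Scd1, Fasn and Msmo1 (vertical, log axis) against the summed normalised counts of 7 adipocyte markers (horizontal, log axis), 1 point per mouse, coloured by group. Mice with more marker counts have more Scd1 and Fasn, while the Msmo1 points show no such order.

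Enterocyte markers, taken as a sum, moved with many of the sterol, mevalonate and regulator genes. Their 7-gene sum was 144570 to 162230 normalised counts in water + PBS mice and 189130 to 214040 in water + Dex mice, with 7 of 7 LFCs above 0 (median 0.36) and 1 called. Anpep was the largest part of the sum (mean 106460 in water + Dex mice), so its order follows the most abundant markers. By sum the water + PBS mice stood at 144570, 159540 and 162230. As a mean of log2 levels, with equal weight per marker, they stood at -0.45, 0.40 and 0.05, another order. Within groups, the 11 sterol genes had the order of the enterocyte sum in a median of 10 of the 12 pairs of mice (6 to 12), the 4 regulators in 10 (9 to 11), the 7 mevalonate genes in 9 (7 to 10), Stard4 in 8 and the fatty acid genes in 5.5 (3 to 8), with a median of 6 over all tested genes. Cyp51 had it in all 12, as did 0.251% of all tested genes. The part of enterocytes in the Dex effect was not tested. Without water + Dex replicate 3, the library with the high hepatocyte markers, 4 of the 6 calls remained (Pmvk, Mvd and Lss higher, Stard4 lower).

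In ZnSO4 mice, Dex raised Msmo1 and lowered Stard4, Srebf1 and Dhcr7. These are 3.23% of the members higher and 9.68% lower, where 6.65% and 7.08% of all tested genes were called. All 3 ZnSO4 + Dex mice lay above the ZnSO4 + PBS mice in 1 member, Lss (3.23%, against 14.2% of all tested genes), and below them in 6 (19.4%, against 14.9%), namely Sc5d, Dhcr7, Stard4, Srebf1, Srebf2 and Scd2. The median LFC of the members was -0.11, with 11 of 31 above 0, and the median over all tested genes was 0.01.

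Msmo1 rose in ZnSO4 mice from 2983 ± 471 to 4944 ± 1462 normalised counts (LFC 0.73 ± 0.22, adjusted p = 0.0455), with replicate 2 of ZnSO4 + Dex inside the range of the ZnSO4 + PBS mice. Its adjusted p was above 0.05 in 10 of the 12 fits without 1 library, up to 0.166, and it passed without water + PBS replicate 3 and without ZnSO4 + Dex replicate 2. Srebf1, the gene of SREBP-1, fell from 662 ± 67.0 to 502 ± 73.7 (LFC -0.40 ± 0.12, adjusted p = 0.0447), a call lost in 6 of these fits, those without water + PBS replicate 2, water + Dex replicate 1, ZnSO4 + PBS replicate 1 or 3 or ZnSO4 + Dex replicate 1 or 3. Dhcr7, which encodes the last reductase before cholesterol in one branch of the pathway, had 598, 687 and 669 normalised counts in the 3 water + PBS mice, 641, 702 and 486 in the water + Dex mice, 983, 704 and 885 in the ZnSO4 + PBS mice and 620.0, 617 and 632 in the ZnSO4 + Dex mice. The ZnSO4 + PBS mice were the highest of the 4 groups. Dhcr7 fell by Dex in ZnSO4 mice (LFC -0.46 ± 0.14, adjusted p = 0.0486), and the call was kept only in the 3 fits without water + Dex replicate 2 or 3 or ZnSO4 + PBS replicate 2.

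Pmvk, Mvd, Fdft1 and Lss, all raised by Dex in water mice, had LFCs of 0.11, -0.14, 0.07 and 0.35 in ZnSO4 mice, with adjusted p-values of 0.566, 0.639, 0.849 and 0.196. Among the fatty acid genes, 7 of 8 had an LFC below 0 by Dex in ZnSO4 mice, beside 6 of the 7 adipocyte markers. ZnSO4 + Dex replicate 2, which had the lowest enterocyte sum, was also the lowest of its group for all 11 sterol genes, Hmgcs1, Mvd, Stard4, Insig1, Insig2 and Srebf2, and the highest for Srebf1, Acat2 and the fatty acid genes other than Elovl6. Averaged over water and ZnSO4 mice, Dex raised Pmvk, Lss and Msmo1 (LFC 0.34, 0.56 and 0.85) and lowered Stard4 (LFC -0.82, adjusted p = 6.15e-06). These are 9.68% of the members higher and 3.23% lower, both below the 10.4% and 11.2% of all tested genes. Without ZnSO4 + Dex replicate 2 the average effect was called for 8 members, adding Fdft1, Cyp51 and Hsd17b7 as higher and Srebf1 as lower. In that fit 1717 of all 16181 tested genes were called higher and 1677 lower.

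**Figure D4:**
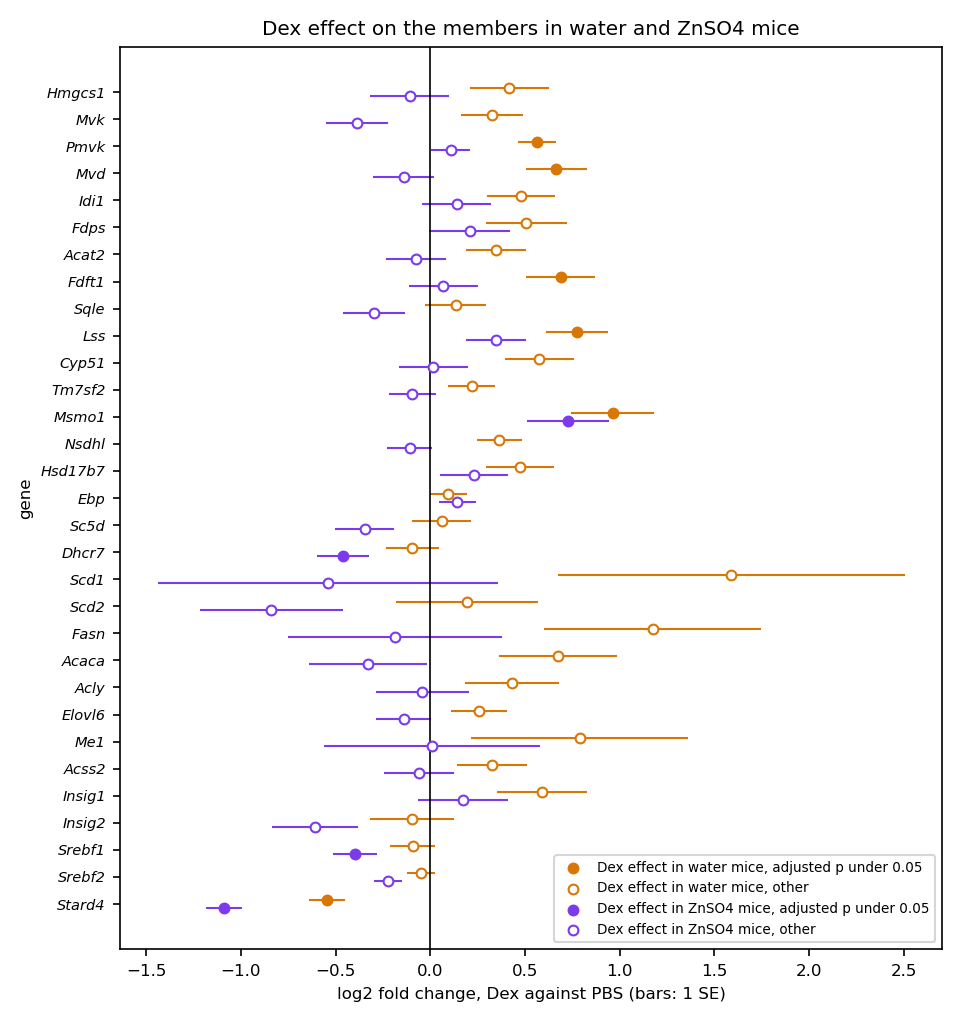
LFC of Dex against PBS for each of the 31 genes, in water mice and in ZnSO4 mice (3 mice per group), with bars of 1 SE and filled points at an adjusted p under 0.05. For 30 of the 31 genes, all but Ebp, the point for ZnSO4 mice lies to the left of the point for water mice.

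The test of whether ZnSO4 changed the response to Dex called none of the members. By edgeR, 0% of all tested genes were called for the interaction, the lowest adjusted p of a member was 0.952, and DESeq2 also called 0 members. The LFC of the interaction was below 0 for 30 of the 31 members, Ebp being the exception, with a median of -0.43, while 47.8% of all tested genes were below 0. An unadjusted p under 0.05 was found for 7 members (22.6%) by edgeR, against 4.98% of all tested genes. By DESeq2 there were 8 (25.8%, against 2.06%). The edgeR number was 13 (41.9%) without water + PBS replicate 3 or ZnSO4 + Dex replicate 2, against 5% and 4.42% of all tested genes. It was 11 (35.5%) without ZnSO4 + PBS replicate 2 or ZnSO4 + Dex replicate 3, against 5.51% and 7.35%. With the adipocyte covariate it was 14 (45.2%, against 7.85%). With every gene of at least 1 count in the fit it was also 14 (45.2%, against 3.32%). It was 5 without ZnSO4 + PBS replicate 1 (16.1%, against 3.5%), the lowest of these fits. The 7 were Stard4, Mvd, Pmvk, Mvk, Nsdhl, Fdft1 and Acaca, with unadjusted p-values from 0.00178 for Stard4 to 0.0422 for Acaca and LFCs of -0.81 for Mvd, -0.71 for Mvk and -0.46 for Pmvk. Many genes of the list are known targets of the same factors, so these counts are not those of 31 independent genes. Of the markers, 7 of 7 of adipocytes and 6 of 7 of enterocytes also had an interaction LFC below 0 (median -2.21 and -0.64), as did 2 of 3 of ileal enterocytes (median -0.18). It was above 0 for 4 of 4 of Paneth cells (median 0.24) and 5 of 5 of smooth muscle (median 0.05). B cells had 6 of 6 below 0 (median -1.26), and T cells and goblet cells 3 of 4 each (median -0.20 and -0.03). Crypt cells had 4 of 5 above 0 (median 0.09), hepatocytes 3 of 4 (median 0.79) and macrophages 2 of 4 (median 0.04). The part of these cell types in the result was not tested. The number of members below 0 was 29 to 31 under every setting, 29 with the adipocyte markers as covariate.

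Given to PBS-injected mice, ZnSO4 called none of the members by edgeR, where 2.11% of all tested genes were called higher and 2.54% lower. At an unadjusted p under 0.05 there were 4 members by edgeR (12.9%, against 19.8% of all tested genes) and 5 by DESeq2. By edgeR there were 10 without water + PBS replicate 3, where 3029 of all 16297 tested genes had such a p. There were 2 without water + PBS replicate 1 (2715 of 16298 genes) or ZnSO4 + PBS replicate 3 (2447 of 16281). The count was 6 with every gene of at least 1 count in the fit (3425 of 30321). DESeq2 called 1, Stard4 (LFC 0.34, adjusted p = 0.0221). The 3 ZnSO4 + PBS mice lay above the water + PBS mice for Mvk, Dhcr7 and Stard4 (9.68% of the members, against 12.4% of all tested genes) and below for Pmvk (3.23%, against 12.9%). Stard4 stood at 3924 ± 60.9 in the PBS mice on water and at 4925 ± 397 in those on ZnSO4 (LFC 0.33 ± 0.10, adjusted p = 0.0762 by edgeR). The median LFC of the members was 0.17, with 22 of 31 above 0.

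Among Dex-injected mice, ZnSO4 lowered 3 members, Pmvk, Sqle and Elovl6 (9.68%), and raised 0, where 2.54% of all tested genes were called lower and 1.83% higher. In 12 members (38.7%) all ZnSO4 + Dex mice lay below all water + Dex mice, as in 13.2% of all tested genes, and in 0 above, as in 12.7%. The 12 were Pmvk, Mvd, Idi1, Fdps and Acat2 of the mevalonate pathway, Fdft1, Sqle, Hsd17b7 and Sc5d of the sterol pathway, Insig2, Srebf2 and Elovl6. The median LFC was -0.34, with 2 of 31 above 0, and the median over all tested genes was 0.01. The LFC was also below 0 for 6 of 7 enterocyte markers (median -0.43), 7 of 7 adipocyte markers (median -1.25) and 4 of 4 T cell markers (median -1.08), with 0, 0 and 2 called lower. So it was for 6 of 6 B cell markers (median -1.73), 4 of 4 macrophage markers (median -0.11) and 3 of 4 hepatocyte markers (median -0.33), with 0 called. It was above 0 for 2 of 3 ileal enterocyte markers (Fabp6, Slc10a2 and Guca2b, median 0.16). The same held for 4 of 4 goblet cell markers (median 0.32, 1 called higher) and 5 of 5 smooth muscle markers (median 0.37). Crypt and Paneth cell markers were split, with 3 of 5 and 2 of 4 above 0 (median 0.01 and 0.03). The part of these cell types in the result was not tested. This comparison and that of Dex in water mice share the 3 water + Dex libraries, so a gene that stood high in these mice enters both.

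Pmvk fell from 738 ± 64.9 normalised counts in water + Dex mice to 471 ± 55.4 in ZnSO4 + Dex mice (LFC -0.65 ± 0.10, adjusted p = 0.00497), and the call was kept in all 12 fits without 1 library. Sqle (ENSMUSG00000022351, chromosome 15, 59315077 to 59331192) had 2097, 1973 and 2536 normalised counts in the 3 water + PBS mice, 2232, 2858 and 2164 in the water + Dex mice, 2016, 1629 and 1922 in the ZnSO4 + PBS mice and 1565, 1181 and 1789 in the ZnSO4 + Dex mice. The ZnSO4 + Dex mice were the lowest group. Sqle fell from 2418 ± 382 to 1511 ± 308 (LFC -0.68 ± 0.16, adjusted p = 0.0381), but the call was kept only in the 4 fits without water + PBS replicate 2 or 3, ZnSO4 + PBS replicate 2 or ZnSO4 + Dex replicate 3, and its adjusted p was 0.0967 without ZnSO4 + Dex replicate 2. Elovl6 (ENSMUSG00000041220, chromosome 3, 129532355 to 129638495), an elongase of saturated and monounsaturated fatty acids, had 1799, 1383 and 1301 normalised counts in the 3 water + PBS mice, 1808, 1927 and 1621 in the water + Dex mice, 1413, 1055 and 1169.8 in the ZnSO4 + PBS mice and 939, 1158 and 1205 in the ZnSO4 + Dex mice. The highest ZnSO4 + Dex mouse lay below the lowest water + Dex mouse. Elovl6 fell from 1785 ± 154 to 1101 ± 142 (LFC -0.70 ± 0.15, adjusted p = 0.021), and the call was lost in 3 fits, those without water + Dex replicate 1 or 2 or ZnSO4 + Dex replicate 1. With the adipocyte covariate its LFC was -0.68 (adjusted p = 0.0846). Over both injections, ZnSO4 lowered Pmvk (LFC -0.42), Sqle (LFC -0.46) and Elovl6 (LFC -0.50, adjusted p = 0.00917). These are 9.68% of the members lower and 0% higher, where 6.52% of all tested genes were called lower and 6.24% higher.

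Another 27 genes of these pathways, their regulators and lipid handling were counted beside the members. By Dex in water mice, 3 of the 27 were called higher (11.1%, against 5.41% of all tested genes) and 0 lower (against 4.51%). Lpin1, a phosphatidate phosphatase, had 219, 201 and 151 normalised counts in the 3 water + PBS mice, 442, 361 and 511 in the water + Dex mice, 195, 135 and 172 in the ZnSO4 + PBS mice and 456, 625 and 339.6 in the ZnSO4 + Dex mice. Every Dex mouse lay above every PBS mouse. Dex raised it in water mice (LFC 1.20 ± 0.23, adjusted p = 0.00576) and in ZnSO4 mice (adjusted p = 0.00108).

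Also called higher in water mice were Hsd17b12 of fatty acid elongation (LFC 0.41) and the retinol dehydrogenase gene Rdh11 (LFC 0.40). The SREBP escort Scap and the proteases Mbtps1 and Mbtps2 that release SREBPs had LFCs of -0.05, -0.01 and 0.12. In ZnSO4 mice, Dex raised 1 of the 27, Lpin1, and lowered 0. Among Dex mice, ZnSO4 raised Nr1h3, the gene of the oxysterol receptor LXR alpha, from 391 ± 22.4 to 527 ± 24.5 (LFC 0.43 ± 0.11, adjusted p = 0.0442), and lowered 0. In PBS mice ZnSO4 called 0 of the 27, with 7 at an unadjusted p under 0.05 (25.9%, against 19.8% of all tested genes).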

How the data were processed

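The authors prepared stranded, single-end libraries, mapped reads to mm10 with HISAT2 2.0.4 (a version also in the submitters' processing notes) and counted uniquely mapped reads per gene with featureCounts. The deposited values were raw counts. The annotation release and the strand setting are not given in the sources used here. Symbols and exons were taken from a GRCm38 annotation, which matched 54809 of 54838 identifiers, and promoters from RefSeq (GRCm38.p6).

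Counts were analysed in R 4.3.3 with edgeR 4.0.16: filterByExpr by group (minimum count 10; 15938 genes, 99.8% of counts), TMM factors, 1 quasi-likelihood model of 4 group means (glmQLFit, glmQLFTest) and Benjamini-Hochberg adjustment over all tested genes. SEs were derived from the LFC and the F statistic. The deposited counts of 3 mice per group allow no exact permutation p below 0.1, so p-values come from this model. No 2 libraries of a group were as alike as repeated sequencing (chi-square per degree of freedom 8.3 to 45.3). The fit was tested on simulated data.

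The members, pathway genes and marker lists were chosen with earlier results of these data known. Values of every mouse are printed for members called in a comparison and for the 4 regulators. Those for Scd1, Fasn, Cyp51, Hmgcs1 and Lpin1 were added after their values had been seen. Some genes of these pathways are not reported here. Alternatives were DESeq2 1.42.0, RLE and upper-quartile factors, other filters, only the groups compared, an LFC cut-off of 0.8, the replicate number as a block, leaving out each library and, added later, an adipocyte covariate.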

Additional observations from a re-analysis of the deposited data

How the results depend on the processing

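For each gene called in a comparison the direction was the same under every setting that was run. The 20 calls were recomputed 413 times in all; 331 kept an adjusted p under 0.05 (or the LFC cut-off, where that was the setting), 82 did not, and 0 reversed. The median LFC of the members moved by less than the spread between replicates (0.13 for the mean of the list) in every comparison. For Dex in ZnSO4 mice (-0.11) and the average ZnSO4 effect (-0.06) the median itself was smaller in size than that spread. There this bound does not show that the direction held. With an LFC cut-off of 0.8, the number of members called fell from 6 to 1 for Dex in water mice (Msmo1), from 3 to 0 for ZnSO4 in Dex mice, from 4 to 1 for Dex in ZnSO4 mice (Stard4), from 4 to 2 for the average Dex effect and from 3 to 0 for the average ZnSO4 effect. For ZnSO4 in PBS mice DESeq2 called 1 member in place of 0, and it added Cyp51 for Dex in water mice, Acat2 for ZnSO4 in Dex mice, Insig2 and Srebf2 for Dex in ZnSO4 mice and Fdft1 and Srebf1 for the average Dex effect. For Dex in ZnSO4 mice the count of 4 became 2 with only the groups compared in the fit, Stard4 and the newly called Scd2. It became 2 with the adipocyte covariate, Stard4 and the newly called Srebf2. Msmo1, Srebf1 and Dhcr7 were called in neither of these fits. With the replicate block it became 1, Stard4.

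Replicate numbers did not pair the mice: residuals of libraries with the same number had a median correlation of -0.0557 (-0.359 to 0.457 over 18 pairs), and those with other numbers 0.0225. The replicate block otherwise lost the call of Sqle for ZnSO4 in Dex mice (adjusted p = 0.0506).

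Without 1 library, the number of members called was 0 to 2 for ZnSO4 in PBS mice (2 without water + PBS replicate 3, 1 without ZnSO4 + Dex replicate 2), 3 to 8 for Dex in water mice (3 without water + PBS replicate 1 or 2 or water + Dex replicate 2), 1 to 4 for ZnSO4 in Dex mice (1 without water + Dex replicate 1 or 2 or ZnSO4 + Dex replicate 1), 1 to 4 for Dex in ZnSO4 mice (1 without water + PBS replicate 2, water + Dex replicate 1, ZnSO4 + PBS replicate 1 or 3 or ZnSO4 + Dex replicate 1, and 2 without water + PBS replicate 1 or ZnSO4 + Dex replicate 3), 4 to 8 for the average Dex effect (8 without ZnSO4 + Dex replicate 2), 2 to 4 for the average ZnSO4 effect and 0 for the interaction. Each of these fits has 1 mouse fewer in 1 group. Their counts include members newly called, such as Insig2 for Dex in ZnSO4 mice without ZnSO4 + Dex replicate 3. A comparison loses a mouse only in the fits without a library of its own groups. The other fits change only its normalisation, filter and shared spread. The cause of the other changes was not tested. With 3 mice per group and 10760132 counts or more per library, differences of the size seen for Cyp51 lie near the threshold, and the wide spread of Scd1 and Fasn between mice leaves their differences undecided.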
